A study of Mus musculus with 586 samples.

Results

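The 33 genes described here bring glucose into the cell, split it to pyruvate, turn pyruvate into lactate or pass it into the mitochondrion, and move lactate across the cell membrane. Regulators of these steps, the pyruvate dehydrogenase kinases and the PFKFB enzymes, are included, as are Bnip3 and Egln3, which belong to the same hypoxia response as many glycolytic genes. Members were chosen by name, and all 33 are listed among the 23361 genes of each of the 18 expression tables. Geo-seq reads RNA from small patches of cells cut by laser out of cryosections, here from C57BL/6 mouse embryos between E5.5 and E7.5, the days over which gastrulation turns a single embryonic layer, the epiblast, into ectoderm, mesoderm and endoderm. No treatment, transgene or mutant allele is named for any sample, and the labels give neither sex nor litter. A column of the tables could be assigned to 473 of 586 samples, from 18 embryos: 2 each at E5.5, E6.0 and E7.0, and 6 each at E6.5 and E7.5. The table used for E6.5 embryo 6 carries E6.0 in its name, and was assigned by the samples' descriptions and by its section and region codes, which no E6.0 embryo has; that embryo is 1 of the 2 with endoderm at E6.5. Region codes are not explained in the labels and are taken from the atlas published on these embryos. A is anterior and P posterior epiblast. EA and EP are the endoderm of these sides. M, MA and MP are mesoderm, and VE is visceral endoderm. Each library is a patch of tissue and not a purified cell type, and fewer cells of a type and less RNA per cell cannot be told apart in it.

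Glycolysis splits glucose into pyruvate in a chain of enzymes shared by nearly all cells, and each step is often served by several isozymes, the products of different genes. Glucose enters through facilitative transporters, among them GLUT1 (Slc2a1) and the high-affinity GLUT3 (Slc2a3). Pyruvate is then either reduced to lactate by lactate dehydrogenase, which renews the NAD+ that glycolysis uses, or enters the mitochondrion and is made into acetyl-CoA by the pyruvate dehydrogenase complex. Lactate crosses the membrane through monocarboxylate transporters, of which MCT4 (Slc16a3) is known as an exporter of highly glycolytic cells and MCT1 (Slc16a1) carries lactate and pyruvate in either direction. The early mouse embryo is known for a strong reliance on glycolysis around gastrulation.

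Values are FPKM, fragments per kilobase of transcript, scaled to the number of mapped fragments, and were compared within each embryo, section by section, as differences of log2(FPKM + 1). A gene was called where its adjusted p in limma, a linear model with a spread moderated over all genes, was under 0.05 after Benjamini-Hochberg adjustment over all genes tested. Differences are given as mean ± SE unless another error is named. The embryo is the replicate throughout. A single read was worth an FPKM that gives a rough depth of 7.56 to 10.9 M reads (1 M = 1000000) for the median library of the 7 E6.5 and E7.5 embryos without endoderm or mesoderm libraries, and of 2.13 to 3.23 M for the other 11 embryos. All 7 endoderm markers were at 1 FPKM or more in EA and EP at every stage, all 7 mesoderm markers in M, MA and MP, and all 6 epiblast markers in A and P except for 1 in P at E7.5. Presence alone does not set the tissues apart. All 6 epiblast markers also passed in EA and EP at E6.5, and all 7 mesoderm markers in EP at E7.0 and E7.5. At E6.5 the endoderm list summed to 176 to 411 FPKM per embryo in A, against 85.3 to 179 in EA and 65.4 to 181 in EP. The epiblast list there summed to 383 to 936 in A, 50.3 to 58.4 in EA and 28.4 to 99.3 in EP. All 9 visceral endoderm markers were also present in EA and EP, with sums per embryo of 578 to 6569 FPKM, against 37.4 to 312 in A and P from E6.5 on.

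Eno1 and Gapdh share reads with near-identical genes, which matters for what follows. Eno1, the main enolase, is 99.482% identical over 1736 bases to the gene Gm5506, and the tables give the pair mean levels of 446 and 385 FPKM over all libraries. Gapdh is 99.9% identical over 1002 bases to Gm12070, listed at 304 FPKM against 1306 for Gapdh itself. How the reads were divided between Eno1 and Gm5506 differed between embryos: at E6.5, A of embryo 4 had 1199 FPKM of Eno1 and 271 of Gm5506, while A of embryo 2 had 396 and 1031. Fold values of Eno1 are therefore also given with the FPKM of Gm5506 added, which was decided after the values were seen.

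The members differed widely in abundance. In A at E6.5, Ldha, which makes lactate, was highest at 1951 ± 574 FPKM (SD, n = 6 embryos), followed by Gapdh at 1852 ± 668, neighbours that differed by far less than their spread. Aldoa (aldolase) stood at 833 ± 287, Pkm (pyruvate kinase) at 738 ± 217 and Eno1 at 633 ± 299, and the spreads of these 3 overlapped as well. With Gm5506 added Eno1 was at 1234 ± 377, above Aldoa and Pkm, so its place in the order holds for the split reads alone. Below them came Pgam1, Tpi1 and Pgk1, enzymes of the middle of the chain, between 411 and 529 FPKM, then Ldhb at 157 ± 57.2 and Slc2a1 at 129 ± 42.9. In the same tissue 10 members reached 100 FPKM, 11 lay between 10 and 100, 9 between 1 and 10, and 3 were under 1 FPKM: Pfkfb2 at 0.465, Eno2 at 0.174 and Pfkfb4 at 0.169. Isozymes of the same step were far apart: Hk2 (hexokinase 2) stood at 20.7 ± 7.54 against 1.04 ± 0.375 for Hk1, and Pfkl (liver phosphofructokinase) at 41.1 ± 13 against 6.92 ± 2.02 for Pfkm and 2.51 ± 1.07 for Pfkp.

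**Figure D1:**
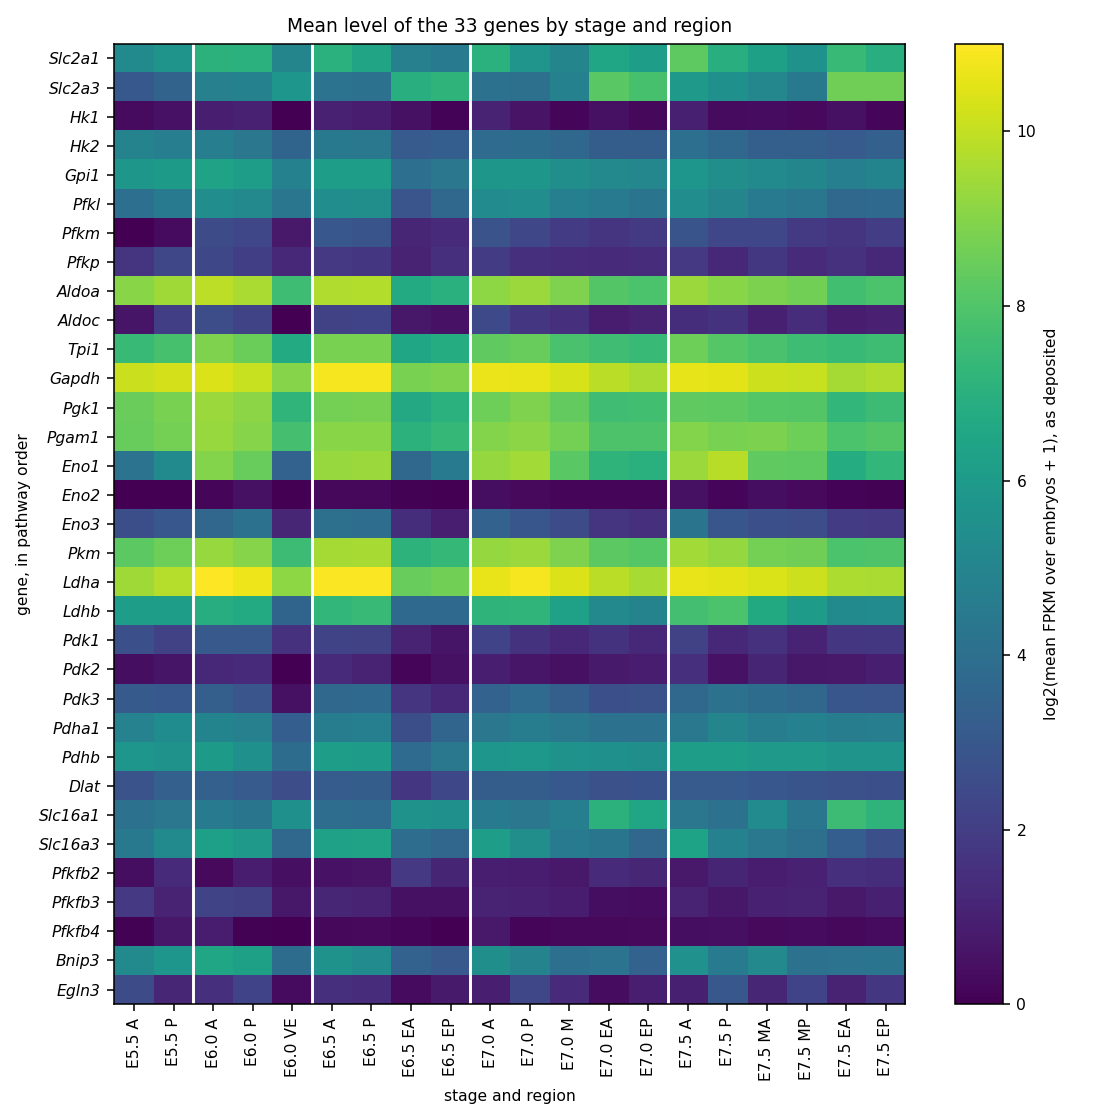
Level of each member (rows, in pathway order) in each stage and region (columns), as log2 of the mean FPKM over embryos plus 1, with brighter colours for higher levels and white lines between stages. Gapdh and Ldha are the brightest rows in A and P, and Slc2a3 and Slc16a1 are brighter in EA and EP than in A and P from E6.5 on.

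The start regions shown here belong to the transporters and lactate dehydrogenases that the results below turn on. They run from 250 bases before to 50 bases after the RefSeq start on GRCm38.p6, and capitals mark the motif ACGTG on either strand (so CACGT where it lies on the other), the core of the sites that hypoxia-inducible factors are known to bind, which also lies within CACGTG, the E-box bound by MYC. CACGTG holds the motif on both strands and so counts as 2 matches. Matching by symbol found promoters for 32 of the 33 members, all but Slc2a3, so that transporter is not shown. The first is Slc2a1 at chr4:119108495-119108794 (+), with 1 match, and the next are Slc16a1 at chr3:104638414-104638713 (+), with 3, Slc16a3 at chr11:120948817-120949116 (+), with 2, Ldha at chr7:46845554-46845853 (+), with 5 (another Ldha promoter, at chr7:46846832-46847131, has 0), and Ldhb at chr6:142507908-142508207 (-), with 0.
Slc2a1: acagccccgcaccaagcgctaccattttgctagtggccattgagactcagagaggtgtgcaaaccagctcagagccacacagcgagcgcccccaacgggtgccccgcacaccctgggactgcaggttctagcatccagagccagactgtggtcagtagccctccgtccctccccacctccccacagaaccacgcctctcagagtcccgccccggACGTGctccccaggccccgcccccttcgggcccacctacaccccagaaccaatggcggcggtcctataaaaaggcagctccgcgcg
Slc16a1: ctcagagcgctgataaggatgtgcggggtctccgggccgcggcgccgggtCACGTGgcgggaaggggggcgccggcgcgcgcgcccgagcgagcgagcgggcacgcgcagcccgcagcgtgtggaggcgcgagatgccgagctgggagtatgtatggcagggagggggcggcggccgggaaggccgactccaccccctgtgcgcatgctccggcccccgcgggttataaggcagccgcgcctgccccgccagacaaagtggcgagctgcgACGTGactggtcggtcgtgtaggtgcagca
Slc16a3: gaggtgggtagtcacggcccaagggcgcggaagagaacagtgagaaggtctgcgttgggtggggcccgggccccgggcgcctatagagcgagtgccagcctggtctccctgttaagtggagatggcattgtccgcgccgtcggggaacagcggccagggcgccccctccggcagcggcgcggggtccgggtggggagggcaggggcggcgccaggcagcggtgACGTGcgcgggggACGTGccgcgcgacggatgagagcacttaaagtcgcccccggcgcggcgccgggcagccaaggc
Ldha: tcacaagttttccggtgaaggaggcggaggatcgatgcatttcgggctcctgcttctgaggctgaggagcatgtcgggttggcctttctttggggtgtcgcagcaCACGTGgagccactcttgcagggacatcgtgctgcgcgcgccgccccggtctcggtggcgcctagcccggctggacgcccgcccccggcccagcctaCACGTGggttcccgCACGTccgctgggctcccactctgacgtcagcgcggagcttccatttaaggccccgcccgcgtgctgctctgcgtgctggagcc
Ldhb: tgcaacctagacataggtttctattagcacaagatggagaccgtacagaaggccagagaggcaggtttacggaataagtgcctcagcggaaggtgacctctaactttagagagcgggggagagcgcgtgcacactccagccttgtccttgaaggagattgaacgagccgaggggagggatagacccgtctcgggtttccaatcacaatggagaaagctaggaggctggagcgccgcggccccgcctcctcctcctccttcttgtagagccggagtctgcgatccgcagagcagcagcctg
Of the 48 promoters of members, 24 (50%) hold ACGTG on either strand, against 6447 of all 32851 promoters of this length (19.6%), and 7 (14.6%) hold CACGTG, against 7.15% of all. Windows of the same gene can overlap and share a match, as for Aldoa, and each window was counted. A match is a run of letters and not a measured binding site, and the Ldhb window without a match says nothing of the factors that act on it.

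Endoderm against epiblast gave the most called members of any comparison made here. Endoderm was compared with A and P of its own section. At E6.5 all 14 sections held both. At E7.0 and E7.5, with 20 and 18 sections, A was present in 3 or 4 per embryo, and the other sections were compared with P alone. Averaged over E6.5, E7.0 and E7.5, with 2 embryos each, 27 of 28 members tested were called, 3 higher and 24 lower in endoderm. Over all 10255 genes tested 78.1% were called, 11.2% higher and 66.9% lower, so most genes were called lower here. The members' median difference was -1.17 on the log2 scale and that of all genes -0.53. Libraries of endoderm had lower FPKM sums at E6.5, a median of 168862 in EA and 148631 in EP against 557733 in A. Fewer genes reached 1 FPKM in them as well, a median of 5461 in EA and 6209 in EP against 9411 in A. When every library was scaled to the same median, the median of all genes moved to -0.06, and 4 members were higher and 19 lower of 29 tested, with a median of -0.55, where 52.1% of all genes were called, 21.9% higher and 30.2% lower. By stage, 2 members were higher and 24 lower at E6.5, against 72.9% of all genes, 4.51% higher and 68.4% lower. At E7.0 it was 2 and 20, against 41.7%, 10.1% and 31.7%, and at E7.5 2 and 22, against 45.5%, 9.55% and 36%. Directions below hold on both scales unless stated.

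In endoderm the glucose transporter Slc2a3 stood above Slc2a1, and in A below it. Slc2a3, encoding GLUT3, was at 30.6 and 207 FPKM in EA and 78.9 and 203 in EP of the 2 E6.5 embryos. The E7.0 embryos had 239 and 336 in EA and 149 and 293 in EP, and those of E7.5 354 and 436 in EA and 352 and 433 in EP. In A of the same 6 embryos it was 6.86, 19.1, 9.38, 24.2, 53.1 and 29.6 FPKM, in the same order. Every endoderm value was above the A value of its own embryo, and the ranges touched only through EA of E6.5 embryo 5. The difference was 3.05 ± 0.14 (adjusted p = 2.48e-08, limma), higher in 6 of 6 embryos, and 3.82 with equal medians. It was 2.66 ± 0.24 at E6.5, 3.6 ± 0.24 at E7.0 and 2.89 ± 0.24 at E7.5.

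Slc2a1, encoding GLUT1, did not follow Slc2a3. In the 2 E6.5 embryos it was 58.0 and 114 FPKM in A and 20.5 and 32.6 in EA, whereas at E7.0 it was 67.3 and 189 in A and 45.0 and 138 in EA, and at E7.5 201 and 192 in A and 193 and 146 in EA. EA lay well under A at E6.5 and nearer to it at E7.5, and these levels do not include EP. Against the epiblast, that is A and P at E6.5 but mostly P alone at E7.0 and E7.5, the difference was -1.51 ± 0.18 at E6.5 (adjusted p = 2.02e-05, limma), 0.35 ± 0.18 at E7.0 (adjusted p = 0.147) and 0.15 ± 0.18 at E7.5 (adjusted p = 0.519). The mean over stages, -0.34 ± 0.11, was called lower (adjusted p = 0.0113, limma), but it turned to 0.41 and was called higher (adjusted p = 0.00789) with equal medians, so no direction can be given for Slc2a1 across the 3 stages. The change from E6.5 to the mean of E7.0 and E7.5, a contrast added after the values were seen, was 1.76 ± 0.23 (adjusted p = 0.000659, limma), against a median of 0.59 over all genes. With equal medians it was 0.76 (adjusted p = 0.0698). Slc2a1 was itself lower in P than in A (below). Its level in EA was under that in A in every embryo above, though at E7.0 and E7.5 EA was averaged over more sections. A fit limited to sections with A, P, EA and EP was not read for this change. The part of the mostly posterior reference of the later stages in it was not examined.

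**Figure D2:**
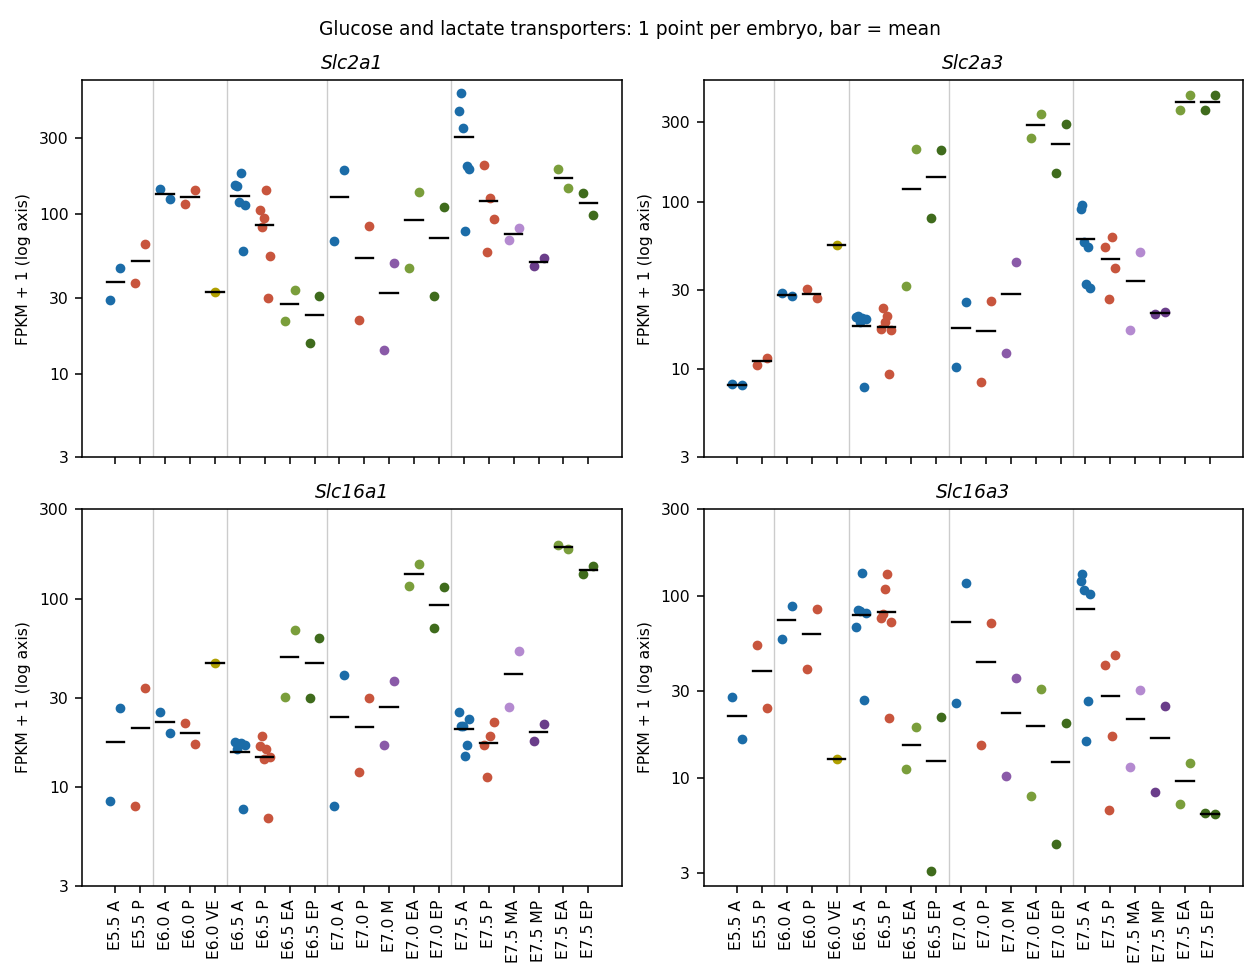
FPKM + 1 on a log axis for the glucose transporters Slc2a1 and Slc2a3 and the monocarboxylate transporters Slc16a1 and Slc16a3, by stage and region, with 1 point per embryo and a bar at their mean. In EA and EP at E7.5 Slc2a3 lies between 352 and 436 FPKM, above the 29.6 to 94.8 of A at that stage.

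The monocarboxylate transporters moved in opposite directions. Slc16a1, encoding MCT1, was at 29.3 and 67.5 FPKM in EA of the E6.5 embryos, 116 and 153 in those of E7.0 and 193 and 184 in those of E7.5, against 6.68, 15.8, 7.00, 38.3, 15.9 and 22.1 in A of the same embryos. Each embryo's endoderm was above its A. The difference was 2.45 ± 0.11 (adjusted p = 2.51e-08, limma), higher in 6 of 6 embryos. Slc16a3, encoding MCT4, was instead at 10.3 and 18, 6.96 and 29.9, and 6.22 and 11.1 FPKM in EA at the 3 stages, against 25.8, 79.5, 24.9, 117, 25.7 and 101.4 in A. Here A was higher in each of the 6. The difference was -2.06 ± 0.16 (adjusted p = 5.97e-07).

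Enzymes of the chain itself were lower in endoderm. Ldha fell by 1.47 (SE 0.07, adjusted p = 2.51e-08), Aldoa by 1.74 (SE 0.09, adjusted p = 3.93e-08), Pkm by 1.46 (SE 0.08, adjusted p = 7.18e-08), Gapdh by 1.13 (SE 0.07, adjusted p = 1.67e-07) and Pgam1 (phosphoglycerate mutase) by 1.29 (SE 0.08, adjusted p = 1.78e-07), each lower in 6 of 6 embryos. Ldha still stood at 585 and 1005 FPKM in EA of the E7.5 embryos, against 929 and 1875 in A. With equal medians the drop of Ldha was -0.73, of Aldoa -1.0, of Pkm -0.72, of Gapdh -0.39 and of Pgam1 -0.55, all called by the same test. Hk2, the enzyme that traps glucose in the cell, was called lower at -0.65 ± 0.13 (adjusted p = 0.000628), but was at 0.05 with equal medians. Pfkp (platelet phosphofructokinase), at -0.23 ± 0.12 (adjusted p = 0.115), was the tested member that was not called, and it was at 0.11 with equal medians.

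Ldhb fell further than Ldha. Ldhb, the form of lactate dehydrogenase known from tissues that burn lactate, was at 10.4 and 14.4, 30.5 and 40.7, and 41.5 and 31.2 FPKM in EA at the 3 stages, against 94.8, 105, 125, 154, 122 and 96.8 in A. EA and A of these embryos did not overlap. Its difference was -2.79 ± 0.15 (adjusted p = 5.62e-08, limma), against -1.47 for Ldha. Eno3, the muscle enolase, fell by 1.82 (SE 0.13, adjusted p = 3.27e-07), Pdk3 by 1.70 (SE 0.11, adjusted p = 2.03e-07) and Bnip3, a mitophagy receptor, by 1.65 (SE 0.13, adjusted p = 7.36e-07). Egln3, an oxygen-sensing prolyl hydroxylase that marks HIF for breakdown, fell by 1.33 (SE 0.15, adjusted p = 7.88e-06). Eno1 had the largest drop of all members, -4.05 ± 0.29 (adjusted p = 3.75e-05), but with Gm5506 added it was -1.76 ± 0.08 (adjusted p = 2.4e-08), within the range of the other enzymes. Pfkfb2, which makes the activator of phosphofructokinase, was the third member called higher, at 0.40 ± 0.11 (adjusted p = 0.00427, limma). Genes were tested where their mean over endoderm and epiblast libraries together reached 1 FPKM, and Pfkfb2 did not reach this between P and A. Its place among the 3 higher members thus leans on the endoderm libraries, where Pfkfb2 was high. In the 6 embryos it was at 0.491, 0.601, 1.42, 0.351, 0.495 and 0.59 FPKM in A and at 3.77, 1.32, 1.77, 1.35, 1.62 and 2.06 in EA.

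**Figure D3:**
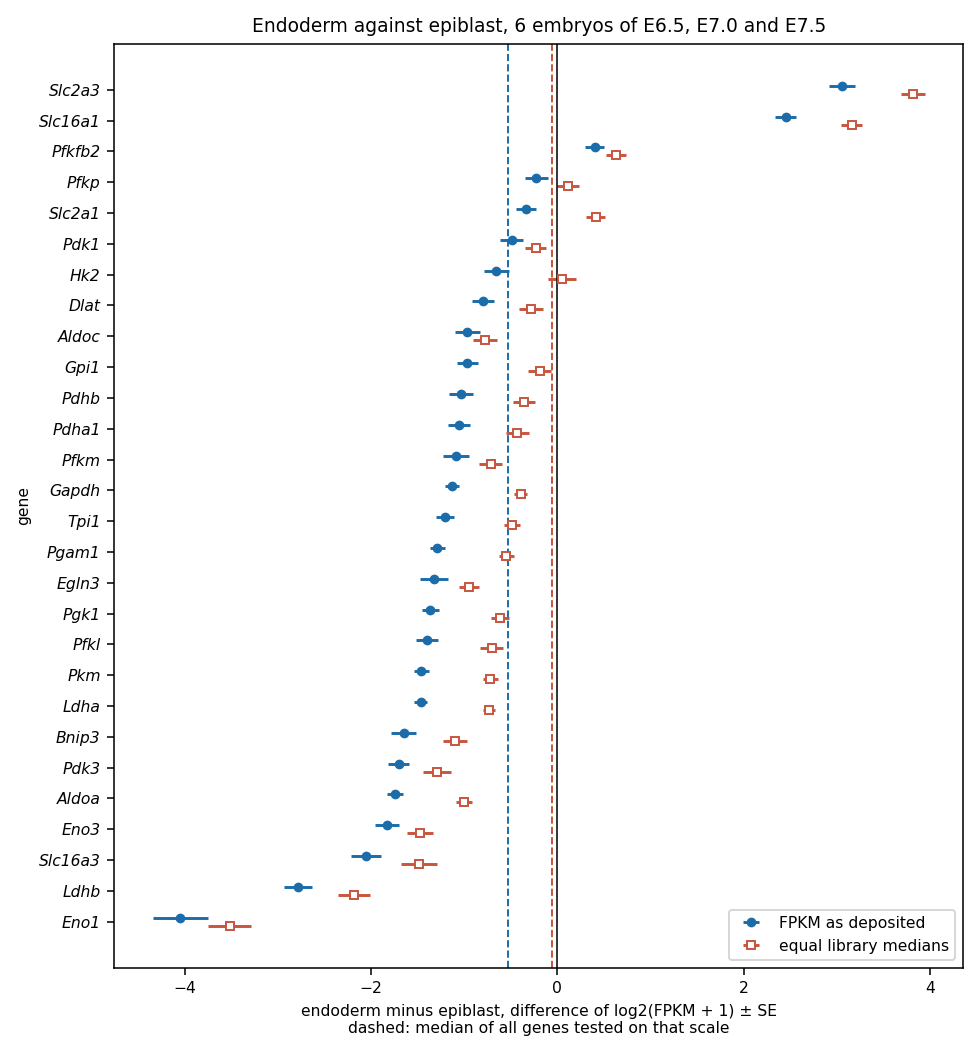
Endoderm minus epiblast difference of log2(FPKM + 1), mean ± SE over 6 embryos, for the 28 members tested, on FPKM as deposited (filled) and with equal library medians (open), with dashed lines at the median of all genes on each scale. Slc2a3 and Slc16a1 lie far to the right on both scales, and Slc2a1, Pfkp and Hk2 lie on opposite sides of 0 on the 2 scales.

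Ratios of isozymes were taken within libraries, with a pseudocount of 1, so those of genes at a few FPKM (Pdk1, Pfkp) also shift with the scale of a library. Of 13 pairs, 10 differed between endoderm and epiblast in the same direction in all 6 embryos, each at p = 0.0312, the smallest that an exact two-sided sign-flip permutation test over 6 embryos can give. Adjusted over the 39 ratio tests run, this is 0.0938 and none was called. A ratio at this smallest p could be called only if most of the 39 tests reached it. The lack of calls is therefore no sign that the ratios were equal. The difference of Slc16a1 over Slc16a3 was 4.51 on the log2 scale (SD 0.69, n = 6), with this exact permutation p. That of Slc2a1 over Slc2a3 was -3.39 (SD 0.74), of Ldha over Ldhb 1.32 (SD 0.42), of Pdk1 over Pdk3 1.21 (SD 0.43) and of Pfkl over Pfkp -1.17 (SD 0.40). The 10 pairs include Hk1 over Hk2, Eno1 over Eno2 and Pfkfb3 over Pfkfb2, each with a gene under a mean of 1 FPKM over all libraries. Eno1 over Eno2 and Eno1 over Eno3 also depend on how reads were divided between Eno1 and Gm5506.

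Markers of maternal decidua and blood, 12 listed and 10 in the tables, summed to 109 to 345 FPKM per embryo in EA and EP at E6.5, with Prl3c1 at 0 in EP, and to 1405 to 15075 at E7.0 and E7.5, with Lyz2 at 0 in EP at E7.5. In A and P these sums were 4.19 to 161 at E6.5 and 43.9 to 1164 at E7.0 and E7.5, and their part in the endoderm values was not tested. In 1 E6.0 embryo with visceral endoderm taken from 4 sections, Slc2a3 was at 54.1 FPKM in VE against 27.4 in A of the same sections, Slc16a1 at 44.7 against 20.0, Slc16a3 at 11.8 against 93.4 and Ldhb at 10.7 against 107. With 1 embryo this has no replicate check.

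Neighbouring pathways, taken from lists, were read beside the members; the shares of all genes to hold these counts against are 11.2% higher and 66.9% lower, and with equal medians 21.9% and 30.2%. In endoderm 16 of 17 genes of the tricarboxylic acid cycle were called lower and 0 higher (with equal medians 12 and 1), with a median of -1.07, among them Idh3a (isocitrate dehydrogenase) at -1.42 ± 0.12 (adjusted p = 1.04e-06, limma) and Sdhb (succinate dehydrogenase) at -1.45 ± 0.13 (adjusted p = 1.26e-06). Of 10 tested genes of gluconeogenesis and glycogen, 3 were higher and 2 lower, with a median of 0.06; with equal medians 7 were higher and 1 lower. Other transport and glycolysis genes gave 2 higher and 7 lower of 11, with Slc2a2, the GLUT2 transporter of liver and yolk sac, at 1.37 ± 0.16 (adjusted p = 1.1e-05) and Ldhc at -1.49 ± 0.13. For mitochondrial pyruvate entry the count was 1 higher and 4 lower of 7, with Mpc2, a subunit of the mitochondrial pyruvate carrier, at 0.94 ± 0.12 and Pdhx at -1.08 ± 0.11. The pentose phosphate pathway had 1 higher and 6 lower of 7. Of 22 genes of the HIF pathway 5 were higher and 15 lower (6 and 7 with equal medians): Vegfa, the vascular growth factor, stood at 1.92 ± 0.13 and Epas1, which encodes HIF2alpha, at 1.82 ± 0.12, while Fam162a was at -1.85 ± 0.11 and Mif at -1.03 ± 0.07. Of 3 MYC genes Mycn was at -1.58 ± 0.12 and Myc at -0.40 ± 0.13, both called lower. With equal medians 1 MYC gene was higher and 1 lower, so these genes were not both still called lower. For the other transport and glycolysis genes the counts on that scale were 3 higher and 5 lower. For pyruvate entry they were 1 and 3, and for the pentose phosphate pathway 1 and 4.

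Between EP and EA, 0 of 27 members tested in 6 embryos were called by limma, against 1.58% of all genes, 0.907% higher and 0.67% lower. Unadjusted, 4 of them passed 0.05. The largest differences were -0.75 ± 0.21 for Slc16a3 (adjusted p = 0.106, limma), -0.51 ± 0.18 for Bnip3, -0.49 ± 0.18 for Slc2a1 and 0.40 ± 0.13 for Egln3. Slc16a3 was called, at -0.97, when E6.5 embryo 6 was left out.

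From the distal tip of the embryo towards its proximal end, Slc2a3 and Slc16a1 rose in endoderm. In EA of E7.5 embryo 6, Slc2a3 was at 176 FPKM in section 2, 368 in section 5 and 808 in section 10, and in EP at 149, 271 and 758. Embryo 5 had 105, 367 and 508 in the same sections of EA. The slope, the difference of log2(FPKM + 1) fitted from the most distal to the most proximal section, was 2.62 ± 0.49 for Slc2a3 (adjusted p = 2.44e-06, limma), with 1.83 to 4.10 in the 6 embryos. Of 27 members tested 6 were called, all with a positive slope, against 20.6% of all genes, 17.5% with a positive and 3.09% with a negative slope. The others were Bnip3 at 2.14 ± 0.47 (adjusted p = 8.53e-05), Pfkfb2 at 1.28 ± 0.30 (adjusted p = 0.000336), Slc16a1 at 1.70 ± 0.48 (adjusted p = 0.0039), Pdk1 at 0.81 ± 0.30 (adjusted p = 0.0351) and Eno1 at 1.39 ± 0.48 (adjusted p = 0.0233). On FPKM as deposited, Eno1 was at 0.09 (adjusted p = 0.934, limma) with its copy added. With equal medians 6.87% of all genes had a positive and 2.64% a negative slope called. There 3 members were called with a positive slope, Slc2a3, Slc16a1 and Bnip3, and Pkm with a negative slope, chosen for naming after it was seen.

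**Figure D4:**
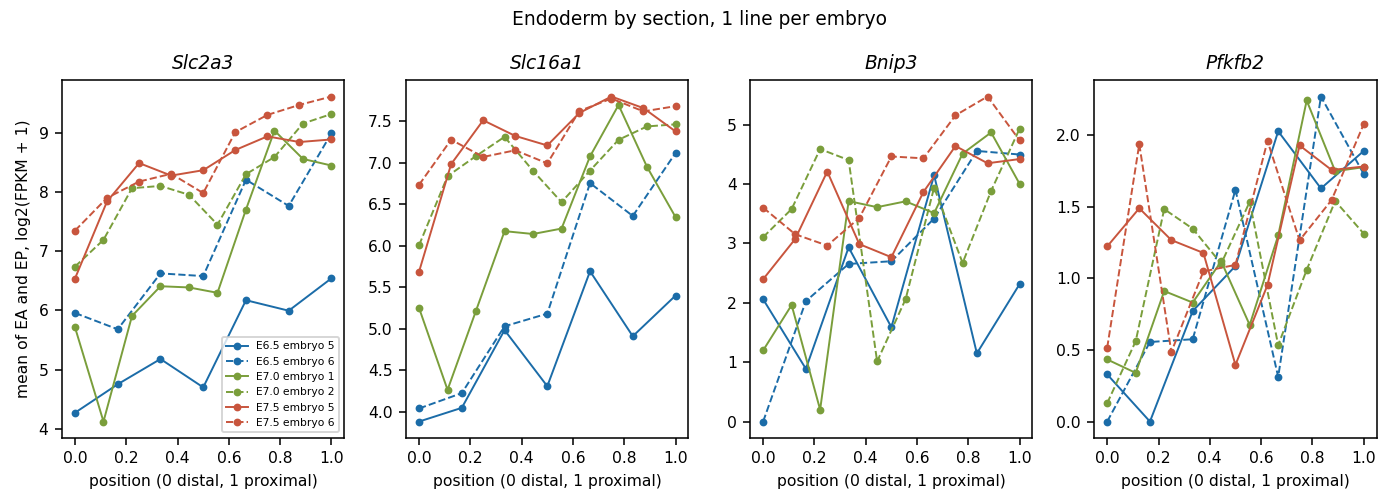
Mean of EA and EP in log2(FPKM + 1) against position from the most distal (0) to the most proximal (1) section, 1 line per embryo, for Slc2a3, Slc16a1, Bnip3 and Pfkfb2. Slc2a3 is higher at the proximal end than at the distal end in all 6 embryos, which had slopes of 1.83 to 4.10.

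In the epiblast at E6.5, no member had a called slope from distal to proximal, in A (30 tested, 0.0418% of all genes called) or in P (31 tested, 1.5% called, 1.38% with a positive slope), by limma. Unadjusted, 4 members in A and 15 in P passed 0.05. The largest were positive: in A 1.25 ± 0.49 for Egln3, 1.24 ± 0.34 for Bnip3 (adjusted p = 0.662, limma), 0.92 ± 0.33 for Slc2a3 and 0.86 ± 0.45 for Pdha1, a subunit of pyruvate dehydrogenase. In P they were 1.21 ± 0.34 for Aldoc (adjusted p = 0.0875), 1.11 ± 0.34 for Pdk3, 1.09 ± 0.36 for Eno1 (0.75 ± 0.32 with its copy) and 1.07 ± 0.32 for Egln3. Aldoc was called, at 1.5, without embryo 1. In simulated data 21% of planted slopes of 1 were found in A and 22% in P, so slopes of about this size could be missed.

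Mesoderm, which forms from the posterior epiblast, had more Ldha, Aldoa and Pkm than endoderm and less Slc2a3. Against endoderm, in 4 embryos of E7.0 and E7.5, 13 of 28 members tested were called higher and 4 lower, where all genes gave 39.4%, with 24.6% higher and 14.8% lower. Slc2a3 was at 11.6 and 42.8 FPKM in M of E7.0, and at 16.1 and 49.1 in MA and 20.4 and 21 in MP of E7.5. These lie far under the 149 to 436 of EA and EP at those stages. The difference was -3.59 ± 0.15 (adjusted p = 9.91e-05, limma). Slc16a1 was at -2.31 ± 0.15 (adjusted p = 0.000196), Slc2a1 at -1.45 ± 0.14 (adjusted p = 0.000643) and Pfkfb2 at -0.44 ± 0.11 (adjusted p = 0.0206). Here too the endoderm libraries counted towards the mean by which Pfkfb2 was tested. The higher members included Ldhb at 1.35 ± 0.13, Eno3 at 1.01 ± 0.11, Aldoa at 0.94 ± 0.10, Pkm at 0.70 ± 0.10 and Ldha at 0.64 ± 0.08, each higher in 4 of 4 embryos, and Eno1 at 1.59 ± 0.33, or 0.78 ± 0.10 with its copy added.

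Against P of the same sections, 1 of 28 members was called higher in mesoderm and 23 lower, where all genes gave 43.1%, with 4.04% higher and 39.1% lower. With equal medians this fell to 1 higher and 9 lower of 27, against 7.29% and 6.41% of all genes, and members called on both scales included Egln3 at -1.32 ± 0.11 (adjusted p = 0.000931, limma; -1.04 with equal medians), Slc2a1 at -1.01 ± 0.09 (-0.71), Tpi1 at -0.69 ± 0.07 (-0.35), Pkm at -0.61 ± 0.06 (-0.27), Pgk1 at -0.60 ± 0.06 (-0.25), Ldha at -0.55 ± 0.05 (-0.20) and Ldhb at -1.08 ± 0.14 (-0.74). Slc16a1 was the higher one, at 0.45 ± 0.10 (adjusted p = 0.0128) and 0.77 with equal medians. Visceral endoderm markers, where Slc16a1 was also high, summed to 95 to 456 FPKM in M and 70.3 to 142 in P at E7.0, and to 277 to 381 in MA, 125 to 193 in MP and 118 to 286 in P at E7.5. Decidua and blood markers summed to 463 to 771 in M and 151 to 156 in P at E7.0, and to 164 to 1486 in MA and MP and 49.3 to 1112 in P at E7.5, and the part of either in the mesoderm values was not tested. Slc2a3 was not called, at -0.32 ± 0.20 (adjusted p = 0.224). Eno1 stood at -1.69 ± 0.16, and at -0.87 ± 0.08 with its copy added, whereas Gapdh, at -0.39 ± 0.04, was no longer called with equal medians (-0.04, adjusted p = 0.595). Since both mesoderm comparisons share the same mesoderm libraries, they are not independent.

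Along the anterior to posterior axis of the epiblast, Slc2a1 was called lower in P at E6.5, E7.0 and E7.5. Differences rest on sections holding both regions, and the levels beside them are means over those sections: 5 to 7 per embryo at E6.5, 3 and 4 at E7.0, and at E7.5 10 in embryo 3 but 3 in each of embryos 4, 5 and 6. At E6.5 Slc2a1 ran from 58.0 to 182 FPKM in A, with a median of 134, and from 28.7 to 140 in P, with a median of 88.4. The ranges overlapped between embryos, but within each of the 6 embryos P was lower. The difference was -0.69 ± 0.15 (adjusted p = 0.0385, limma), and Slc2a1 was the member called of 29 tested at a stage where 0.699% of all genes were called, 0.568% higher and 0.131% lower in P. The call was lost without any 1 of the 6 embryos (adjusted p of 0.0585 to 0.225) and with equal medians (adjusted p = 0.0561). Of the remaining members the largest differences were -0.34 ± 0.19 for Bnip3, -0.24 ± 0.23 for Pdk2 and -0.21 ± 0.18 for Eno3, with an adjusted p of 1 each.

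At E7.0 Slc2a1 was at 67.3 and 189 FPKM in A and 22.7 and 77.7 in P of the 2 embryos. P was again the lower side in both. The difference was -1.28 ± 0.26 (adjusted p = 0.00939, limma), the 1 call among 29 members against 2.92% of all genes, 1.63% higher and 1.29% lower. It was not called with either embryo left out. Egln3 was at 0.89 ± 0.35 (adjusted p = 0.251), Slc16a3 at -0.59 ± 0.23 (adjusted p = 0.237) and Pdk1 at -0.58 ± 0.43, values with no call.

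By E7.5 the anterior and posterior sides differed in 8 of 29 members, 5 higher and 3 lower in P, against 13.8% of all genes, 10.3% higher and 3.43% lower. With equal medians it was 3 higher and 3 lower, against 4.76% and 4.26% of all genes. All 8 had the same sign in 4 of 4 embryos. The lower ones were Slc16a3, Slc2a1 and Pfkp, and the higher ones Egln3, Ldhb, Eno1, Aldoc and Pdha1.

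Slc16a3 in embryos 3, 4, 5 and 6 was at 107, 15.0, 25.7 and 101.4 FPKM in A and at 40.9, 3.79, 10.5 and 39.8 in P. Each embryo was lower in P. The difference was -1.37 ± 0.16 (adjusted p = 1.1e-05, limma), against -0.00 ± 0.13 at E6.5, and the change between these stages was -1.36 ± 0.21 (adjusted p = 0.000511). Slc2a1 was at 347, 77.2, 201 and 192 FPKM in A and 204, 51.6, 100.1 and 91.1 in P, a difference of -0.76 ± 0.19 (adjusted p = 0.0103). Its change from E6.5 was -0.06 ± 0.24 (adjusted p = 0.93). The call of Slc2a1 was lost without embryo 5 (adjusted p = 0.0619) or embryo 6 (adjusted p = 0.0566), and it stood at -0.99 with equal medians. Both genes encode transporters, one for glucose and one for lactate.

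Egln3 ran the other way. It was at 0.949, 0.217, 0.927 and 1.61 FPKM in A and at 5.70, 0.836, 6.00 and 8.94 in P of the same 4 embryos. P was higher in each, and the ranges overlapped through embryo 4. Its difference was 1.54 ± 0.25 (adjusted p = 0.000301, limma). At E6.5 the difference had been -0.10 ± 0.20, and the change was 1.63 ± 0.32 (adjusted p = 0.00439). Ldhb was at 215, 29.2, 122 and 96.8 FPKM in A and 372, 113, 241 and 120.2 in P, with a difference of 1.02 ± 0.17 (adjusted p = 0.000342) and a change from E6.5 of 0.96 ± 0.21 (adjusted p = 0.0131). Its A and P ranges overlapped between embryos. With equal medians the change of Egln3 was still called, at 1.35, and that of Ldhb was not (0.72, adjusted p = 0.108).

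The remaining calls at E7.5 were smaller or rested on a shared sequence. Eno1 was at 0.74 ± 0.13 (adjusted p = 0.000526, limma), and at 0.60 ± 0.12 (adjusted p = 0.00208) with its copy added. Aldoc (brain aldolase) was at 0.77 ± 0.22 (adjusted p = 0.0239), with 0.278 to 2.06 FPKM in A of these 4 embryos. Pdha1 was at 0.68 ± 0.19 (adjusted p = 0.0268) and Pfkp at -0.63 ± 0.18 (adjusted p = 0.0255). Aldoc and Pdha1 were not called with equal medians (adjusted p of 0.115 and 0.176), and each of Aldoc, Pdha1 and Pfkp lost its call when some single embryo was left out. Of the members with a change from E6.5 to E7.5, 3 rose and 1 fell, against 3.99% of all genes, 3.04% up and 0.944% down, and with equal medians 1 rose and 1 fell, against 1.94% and 1.27%. Eno1 was the fourth, at 0.78 ± 0.16 (adjusted p = 0.00744), or 0.62 ± 0.15 (adjusted p = 0.0269) with its copy.

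**Figure D5:**
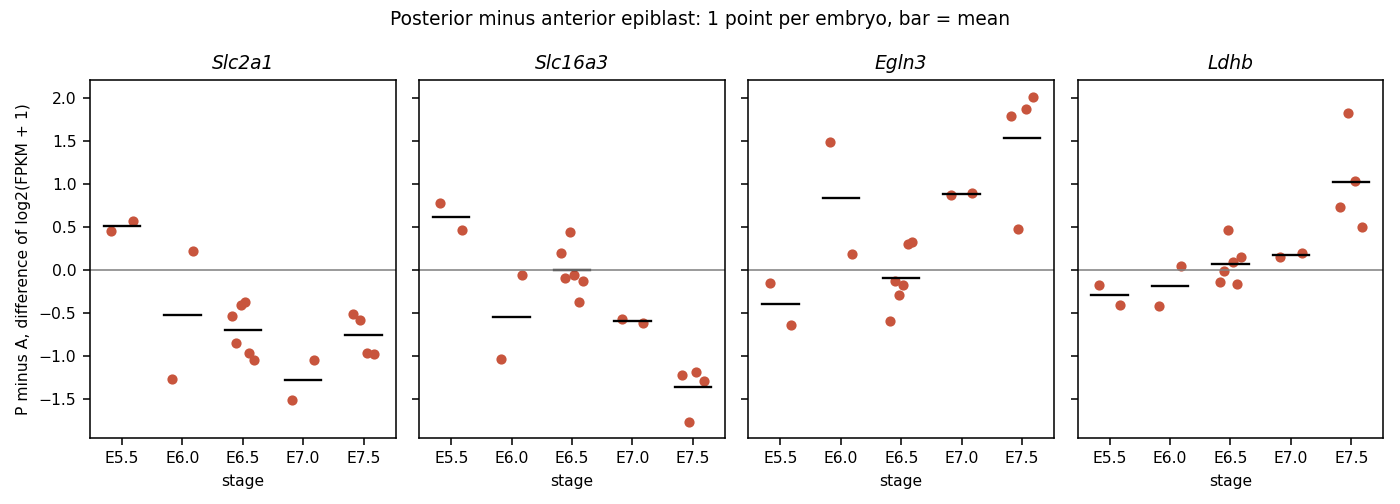
P minus A difference of log2(FPKM + 1) by stage for Slc2a1, Slc16a3, Egln3 and Ldhb, with 1 point per embryo and a bar at their mean. The 4 embryos of E7.5 lie between -1.76 and -1.18 for Slc16a3 and between 0.47 and 2.02 for Egln3.

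Other lists are given for P against A at E7.5 beside 10.3% of all genes higher and 3.43% lower, or 4.76% and 4.26% with equal medians. The gene of mitochondrial pyruvate entry called was Mpc1, a subunit of the pyruvate carrier, at 2.81 ± 0.42 (adjusted p = 0.000144, limma), 1 of 7 tested. In the tricarboxylic acid cycle 3 of 17 were called higher and 0 lower (0 with equal medians), among them Idh3g at 0.80 ± 0.22. Of 22 HIF pathway genes 5 were higher and 0 lower (3 and 1 with equal medians), with Ndrg1, a stress-responsive gene, at 0.79 ± 0.17 (adjusted p = 0.00455) and Ddit4 at 0.93 ± 0.23. Ndrg1 had also been called at E6.5, at 0.89 ± 0.14, and at E7.0, at 2.11 ± 0.24.

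Before gastrulation only 2 embryos were available at each stage. The median E5.5 library had 5626 genes at 1 FPKM or more in A and 6502 in P, against 8946 and 8941 at E6.0. At E5.5, with 2 embryos, 4 of 29 members were called higher in P and 0 lower, against 15.1% of all genes, 12.4% higher and 2.65% lower (4 and 2 with equal medians, against 10.1% and 10.6%): Eno1 at 2.34 ± 0.18, Pfkl at 0.85 ± 0.18 (adjusted p = 0.00401, limma), Dlat, the acetyltransferase of pyruvate dehydrogenase, at 0.95 ± 0.22 (adjusted p = 0.00911) and Eno3 at 0.93 ± 0.30 (adjusted p = 0.0473). With its copy added Eno1 was at 0.16 (adjusted p = 0.577), and without embryo 1 Pfkl (0.59), Dlat (0.66) and Eno3 (0.40) were not called. The median of all genes was 0.17 there. All 9 visceral endoderm markers were present in A and P, with sums of 403 to 639 FPKM in A and 460 to 597 in P, and their part in these differences was not tested. At E6.0 the 1 call, among 29 members and against 0.035% of all genes (0.00874% higher and 0.0262% lower), was Eno1 at -1.06 ± 0.18 (adjusted p = 0.0435), or -0.66 (adjusted p = 0.158) with its copy. Ldha at -0.61 ± 0.17 and Pgk1 (phosphoglycerate kinase) at -0.69 ± 0.20 were not called there, and neither was Egln3 at 0.84 ± 0.35, but 11 members were called without embryo 2.

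Over time both glucose transporters rose in A. Levels of different embryos were compared between E6.5 and E7.5 after scaling every library to the same median. In A, 2 of 29 members tested were called, both higher at E7.5, against 2.52% of all genes, 1.29% higher and 1.22% lower. On this scale Slc2a3 ran from 8.74 to 13.2 at E6.5, with a median of 13, and from 20.2 to 61.1 at E7.5, with a median of 45.8. Embryos of the 2 stages did not overlap. The difference was 1.72 ± 0.24 (adjusted p = 0.000181, limma). Slc2a1 ran from 72.4 to 120 at E6.5 and from 118 to 288 at E7.5, which overlapped at their ends, and rose by 1.05 ± 0.23 (adjusted p = 0.0137); as deposited its difference was 0.96 (adjusted p = 0.651). The next by size were Aldoc at -0.69 ± 0.22 (adjusted p = 0.126) and Hk2 at -0.48 ± 0.21 (adjusted p = 0.312). Depth differed between embryos, so both sets were also fitted alone. In the deeper embryos, whose labels list no endoderm or mesoderm libraries, Slc2a3 differed by 1.75 (adjusted p = 0.000894) and Slc2a1 by 1.17 (adjusted p = 0.043), and in the shallower ones by 1.75 (adjusted p = 0.617) and 1.07 (adjusted p = 1). At E7.5 A had 9 or 10 libraries in embryos 1 to 3 and 3 in embryos 4 to 6.

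In P, 4 of 30 members were called between E6.5 and E7.5, 2 in each direction, against 10.2% of all genes, 5.61% higher and 4.62% lower. Slc2a3 rose again, by 1.32 ± 0.25 (adjusted p = 0.00171, limma), from 10.2 to 13.8 at E6.5 to 22.6 to 39.6 at E7.5. Egln3 rose by 1.39 ± 0.20 (adjusted p = 0.000113), from 0.594 to 1.66 at E6.5 to 3.66 to 5.79 at E7.5. Neither gene's ranges overlapped. Slc16a3 fell by 1.76 (SE 0.49, adjusted p = 0.0279), from 29.4 to 81.3 to 7.12 to 26.7, and Eno3 fell by 1.02 (SE 0.31, adjusted p = 0.0439), from 5.60 to 13.2 to 3.10 to 6.30; Eno3 overlapped. These 2 calls were lost with several single embryos left out, Slc16a3 without E6.5 embryos 1, 3 or 4 or E7.5 embryos 4 or 5 (adjusted p of 0.052 to 0.123), and Eno3 without any of E6.5 embryos 1 to 4 or E7.5 embryos 4 to 6 (adjusted p of 0.0763 to 0.161). Myc, outside the members, fell by 1.55 (SE 0.23, adjusted p = 0.000459) in A and by 2.18 (SE 0.29, adjusted p = 5.18e-05) in P.

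No isozyme ratio was called in the epiblast either, and the tests between P and A had the same limit. In A over time, a single ratio at the smallest possible p would not have been called on its own. Between P and A at E6.5, Slc2a1 over Slc2a3 was at -0.67 (SD 0.35, n = 6) and Ldha over Ldhb at -0.09 (SD 0.06), below 0 in 6 of 6 embryos, each at the smallest exact permutation p of 0.0312 and an adjusted p of 0.0938. Between the 6 embryos of E6.5 and the 6 of E7.5 in A, Slc2a1 over Slc2a3 differed by -0.68 (exact permutation p = 0.00866, adjusted p = 0.0938, where 0.00216 is the smallest possible).

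Hk1, Eno2 and Pfkfb4 were below the filter of a mean of 1 FPKM in nearly all comparisons and so were mostly not tested, likewise Pfkfb2 between P and A and in A over time, Pdk2 and Pfkfb3 in the endoderm and mesoderm comparisons, and Aldoc in EP against EA and in the endoderm slope. The pyruvate dehydrogenase genes Pdha1, Pdhb and Dlat, and Gpi1, Pfkm and Pdk1, were all called lower in endoderm over the 3 stages. Of these Gpi1, Pfkm, Pdha1, Pdhb and Dlat were also called lower in mesoderm than in P, and none of these 5 with equal medians (adjusted p of 0.605, 0.249, 0.158, 0.299 and 0.854).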

How the data were processed

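RNA was measured in laser-dissected patches of embryo cryosections, with libraries made from GuSCN-extracted RNA by Nextera XT, per the labels' protocols. TopHat2 2.0.8b, Cufflinks 2.1.1 and the build mm10 are named in the submitters' processing notes, and the authors deposited FPKM per gene, with no read counts. Rough depths were computed from the FPKM worth of 1 read over 7860 genes with 1 transcript. Of the 586 samples, 113 had no column matched by name and were not analysed here, and 111 columns that matched no single sample were not used. Members and gene lists were chosen with earlier results of these data known.

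Within-embryo differences of log2(FPKM + 1) between regions of the same section were averaged per embryo and fitted with limma 3.58.1 in R 4.3.3 (trend and robust), with Benjamini-Hochberg adjustment over all genes whose mean reached 1 FPKM at 1 or more stages. That mean was taken over the libraries of both sides of a comparison. All stages of a fit shared 1 estimate of the spread. Embryos are numbered in the labels, but nothing there says that they come from separate litters, so p-values measure the spread between these embryos. For stage comparisons, libraries were first scaled to equal medians over 6839 genes above 0 in at least 90% of libraries, leaving out 2 libraries. Pairing by embryo follows from the labels. At E6.5 the deviations of A and P of the same embryo correlated across 9541 genes with r of 0.660 to 0.889, and those of different embryos with at most 0.549. At E7.5 these were 0.456 to 0.752 and at most 0.0379 over 10082 genes. In simulated data 92% of planted log2 differences of 1 were found for P against A at E6.5, 78% at E7.5, 87% for endoderm against epiblast and 2% for the endoderm slope. Each simulation planted 200 differences among genes drawn independently and otherwise without any. Its shares do not give the power in comparisons where far more or far fewer genes were called.

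Isozyme ratios used exact two-sided permutation tests over embryos, written in Python 3.11.15 with numpy 2.4.6. Near-identical copies were found with blastn 2.17.0 among transcripts, at 95% identity over at least 500 bases. Promoters came from RefSeq on GRCm38.p6. Members named for a comparison were the called ones, up to 8 by smallest p, or where fewer than 4 were called the largest differences up to 4, and from each list up to 4 called genes; Slc2a1, Slc16a3, Eno1, Eno3, Pfkfb2, Pfkp, Hk2, Egln3, Pdk3 and Bnip3 in endoderm, Pfkfb2 and Eno1 in mesoderm against endoderm, and Ldhb, Slc16a1 and Slc2a3 in mesoderm against P were added after their values were seen. Alternatives were other scales, a pseudocount of 0.1, no filter, no replicate block, copies added, subsets of embryos and each embryo left out.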

Additional observations from a re-analysis of the deposited data

Results flagged for a closer look

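In P minus A at E7.5, Egln3 differed by 0.47 in embryo 4 and by 1.79 to 2.02 in the other 3, a gap beyond the critical value for 4 samples. With libraries at equal medians, 8 groups, of 6 members, had 1 embryo far from the rest. Pgam1 in embryo 4 of E6.5 was at 506 in A against 316 to 373 in the others, and at 490 in P against 296 to 356. Slc2a3 in A was at 8.74 in E6.5 embryo 5 against 11.8 to 13.2, and at 20.2 in E7.5 embryo 6 against 41.0 to 61.1. Aldoa in P of E6.5 embryo 6 was at 358 against 580 to 737. In A of E7.5 embryo 4, Pdk1 was at 5.41 against 1.89 to 2.72 and Pfkfb2 at 2.11 against 0.258 to 0.555. Ldhb in P of E7.5 embryo 6 was at 72.6 against 197 to 233. These are 9 of 124 groups looked at, and chance alone gives about 1 in 20.

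Between E6.5 and E7.5 the P minus A difference changed by the test of the change itself for Slc16a3 (-1.36), Egln3 (1.63), Ldhb (0.96) and Eno1 (0.78). Endoderm minus epiblast changed from E6.5 to the mean of E7.0 and E7.5 for Eno1 (2.50), Pdk1 (1.30) and Egln3 (-0.85), each also with equal medians, where the values were 2.02, 1.21 and -0.98. The call of Egln3 was lost with equal sums (adjusted p = 0.0864) and with no filter (adjusted p = 0.107), by limma. Eno1 with its near-identical copy added changed by 0.51 (adjusted p = 0.0323). For Slc2a1 the change was 1.76: both E6.5 embryos were below 0 and all 4 later embryos above 0. The epiblast reference was A and P at E6.5 but mostly P alone later, and its part in these values was not examined. Of the 28 members tested 17 were called higher and 1 lower in this change, while of all genes 42.1% were called, 41% of the genes tested towards higher and 1.09% towards lower values, and the median of all genes was 0.59. With equal medians 2 of 29 members were higher and 1 lower, against 4.88% and 1.27% of all genes.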

How the results depend on the processing

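Of 685 recomputed values of 94 single-gene results, 592 kept direction and side of the threshold, 83 lost a call, 2 gained one and 8 turned direction; with 1 embryo left out, 453, 54, 6 and 1 of 514 did so. Those that turned were endoderm minus epiblast for Slc2a1 (0.41 with equal medians, 0.11 with equal sums, 0.39 with equal medians over genes above 0 in 99% of libraries, a scale added after seeing the data), Pfkp (0.11 and 0.17 on the median scales) and Hk2 (0.050 and 0.027), and mesoderm minus P for Slc2a3 (0.0098 with equal medians, and 0.012 to -0.66 with 1 E7.5 embryo left out, the former without embryo 5). The cause was not tested.

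Without the replicate block, that is unpaired, members called fell from 4 to 0 at E5.5, 1 to 0 at E6.0 and E6.5, 1 to 0 at E7.0, 8 to 1 at E7.5, 4 to 0 for the change and 27 to 23 in endoderm. Equal medians gave 0 at E6.0 and E6.5, 2 for the change, 5 for E7.5 embryos alone and 10 for mesoderm against P, where equal sums gave 14 and the added median scale 10. At E6.0 equal sums, the added scale, a pseudocount of 0.1 and added copies each gave 0. At E6.5 a pseudocount of 0.1, no filter, and embryos with or without endoderm or mesoderm libraries alone gave 0, and at E7.5 the latter alone gave 1. Equal sums gave 1 for the slope in A, a pseudocount of 0.1 gave 1 for the slope in P, and no filter gave 2 for the endoderm slope. FPKM as deposited gave 1 in A and 1 in P over time, equal sums 2 in P, and embryos with endoderm or mesoderm libraries alone 0 in A.

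With 1 embryo left out, called members ranged from 2 to 9 at E5.5, 0 to 11 at E6.0, 0 to 0 at E6.5 and at E7.0, 5 to 6 at E7.5, 4 to 4 for the change, 26 to 28 in endoderm, 14 to 24 for mesoderm against endoderm, 14 to 23 against P, 0 to 1 for EP against EA, 0 to 0 for the slope in A, 0 to 1 in P, 3 to 8 in endoderm, 2 to 2 in A and 2 to 4 in P over time, and 0 to 0 for ratios, where the tests between tissues could not go below p = 0.0625 with 5 embryos (exact permutation). A lone embryo of a stage is assumed to vary like the others. Depth is known only roughly, so no counting interval can be given.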
